A study of Mus musculus with 2 samples.

Results

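Serine synthesis and folate one-carbon genes were compared between primitive and maturing haematopoietic stem cells (HSC) of mouse bone marrow. The members were 7 genes, Phgdh, Psat1, Psph, Shmt1, Shmt2, Mthfd1 and Mthfd2, of 12393 genes named on the array. They were chosen by symbol, with earlier results of this comparison known, so their levels are described here without a test. The array annotation gave 22 probe sets for them among 22690, of which 20 carried a single symbol and are reported below.

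One array held cDNA of primitive HSC and the other that of maturing HSC, with no treatment of either population. Both were cultured briefly before fluorescence-activated sorting. The labels name no strain, age, genotype or surface phenotype. By their protocols, poly(A)-primed cDNA was PCR amplified, sized and cloned in phage before the inserts were transcribed into labelled cRNA, so each array read a cloned library.

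Cells can make serine from a glycolytic intermediate in 3 enzyme steps. Serine then passes a one-carbon unit to tetrahydrofolate, the cofactor that carries such units, in the cytosol or in mitochondria. The folate-bound units are used to build purines and thymidylate, and proliferating blood progenitors are known to draw on them.

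Intensities are MAS5 signals in arbitrary units, on a linear scale, and a level of one probe set cannot be set against that of another. Readings under a floor of 441, the pooled median of both arrays, were set to it. A gene with 1 array under the floor therefore has only a bound, and a gene with both under it was not measured. The gene value was taken from its brightest probe set. Of the 7 genes, 6 were measured, 5 of them above the floor on both arrays. All 6 had lower readings in primitive HSC, as did 47.3% of the 8852 measured genes. The median log2 ratio of primitive over maturing was -1.20 for these 6 and 0.07 for all measured genes. Phgdh and Psat1 passed a 4-fold difference (2 of 6 measured genes), and none passed it in the other direction. Over all measured genes, 4.69% were at least 4-fold lower in primitive HSC and 3.45% at least 4-fold higher. At 2-fold, Shmt2 joined Phgdh and Psat1 (3 of 6, against 17.6% of all), and at 8-fold Phgdh and Psat1 remained (2 of 6, against 0.678%). The 2 genes past 4-fold became 1 (Phgdh) with the floor at percentile 75, 1 (Psat1) with the median over a gene's probe sets and 0 with only probe sets specific to 1 transcript, where neither gene was measured. Psat1 at percentile 75 (at most -1.85) and Phgdh with the median of probe sets (at most -1.94) were bounds. Their true differences may therefore still lie past 4-fold. There was no replicate library, so the spread between samples is unknown, and fewer cells of a type cannot be told apart from less RNA per cell.

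**Figure D1:**
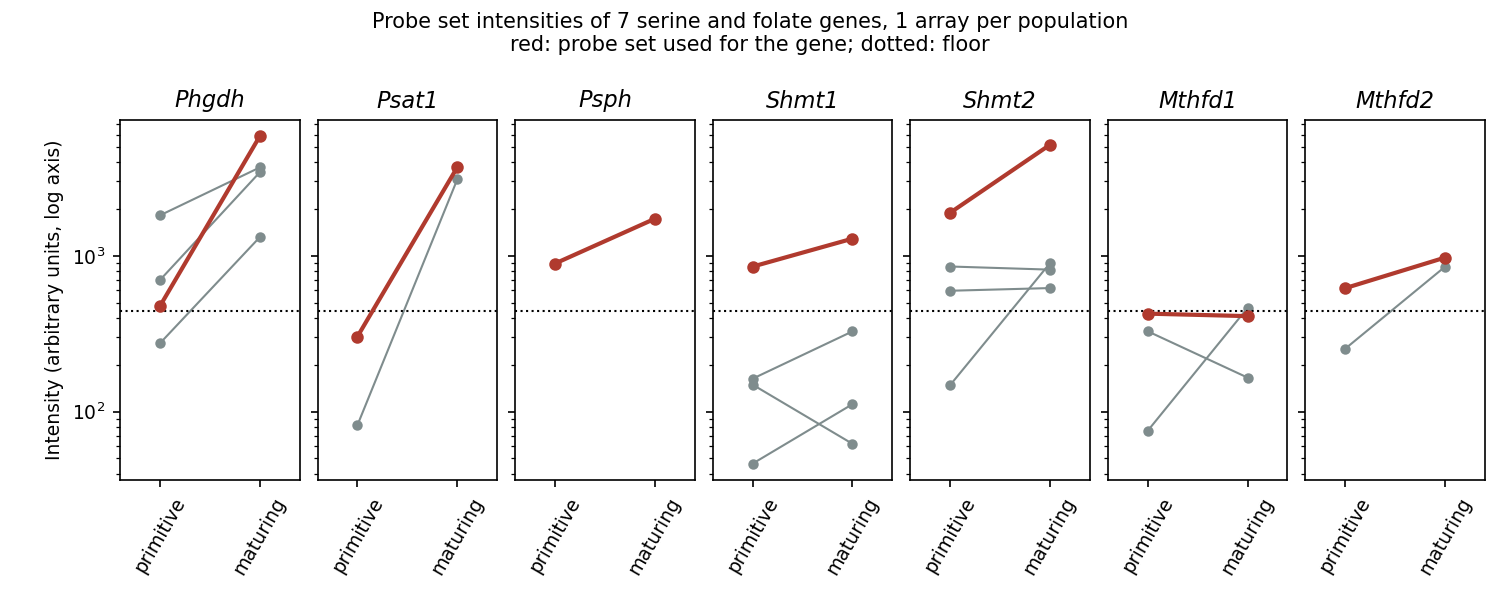
Intensity (arbitrary units, log axis) of the 20 probe sets of the 7 genes on the primitive array (left point) and the maturing array (right point), with a line joining the readings of a probe set. The red line is the probe set used for the gene and the dotted line is the floor of 441; all lines of Phgdh and Psat1 run upward to maturing HSC, while the lines of Shmt1, Shmt2 and Mthfd1 run both ways.

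Of the member genes, the first 2 enzymes of serine synthesis, Phgdh and Psat1, had the largest differences. Phgdh, phosphoglycerate dehydrogenase, catalyses the first and committed step of the pathway. Its brightest probe set read 475 in primitive HSC and 5845 in maturing HSC, a log2 ratio of -3.62, or 12.3-fold lower in primitive HSC. The primitive reading lay just above the floor. The other 3 single-symbol probe sets of Phgdh read 698 in primitive HSC against 3431 in maturing HSC, 1817 against 3689, and 274 against 1315. They gave log2 ratios of -2.30, -1.02 and, with the primitive reading under the floor, a bound of -1.58. All 4 probe sets of Phgdh were thus lower in primitive HSC, but the size of the difference ran from 2.03-fold to 12.3-fold between them. All 4 are of a design in which some probes can also bind similar transcripts. A further 2 probe sets, annotated to Phgdh together with a second gene, were not used for any gene. They read 44.5 in primitive HSC against 350 in maturing HSC, and 622 against 3255.

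Psat1, phosphoserine aminotransferase, carries out the second step. Its brighter probe set read 303 in primitive HSC and 3701 in maturing HSC. The primitive reading was under the floor, so Psat1 was at least 8.39-fold lower in primitive HSC. Its second probe set read 81.9 in primitive HSC and 3090 in maturing HSC, at least 7.01-fold lower in primitive HSC. The bounds of these probe sets were -3.07 and -2.81 on the log2 scale. Both have the floor in place of the primitive reading, so their likeness reflects the maturing readings only and does not size the difference.

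Psph, phosphoserine phosphatase, releases serine in the last step. Its only probe set read 892 in primitive HSC and 1729 in maturing HSC, a log2 ratio of -0.95. The 3 enzymes of the route were thus all lower in primitive HSC, with the 2 early steps past 4-fold and the last at 1.94-fold. Over 1318 genes with more than 1 probe set above the floor on both arrays, the log2 ratios of probe sets for the same gene had a pooled SD of 0.82. This is a spread within a pair of arrays and says nothing of the spread between libraries. The Psph ratio is of about that size.

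Among genes above the floor on each array, the 3 whose log2 ratio was nearest to that of Phgdh, over these 2 arrays, were Sfpq (-3.54), Adk (-3.53) and Cdc5l (-3.51). With 2 arrays this likeness rests on 1 ratio per gene.

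**Figure D2:**
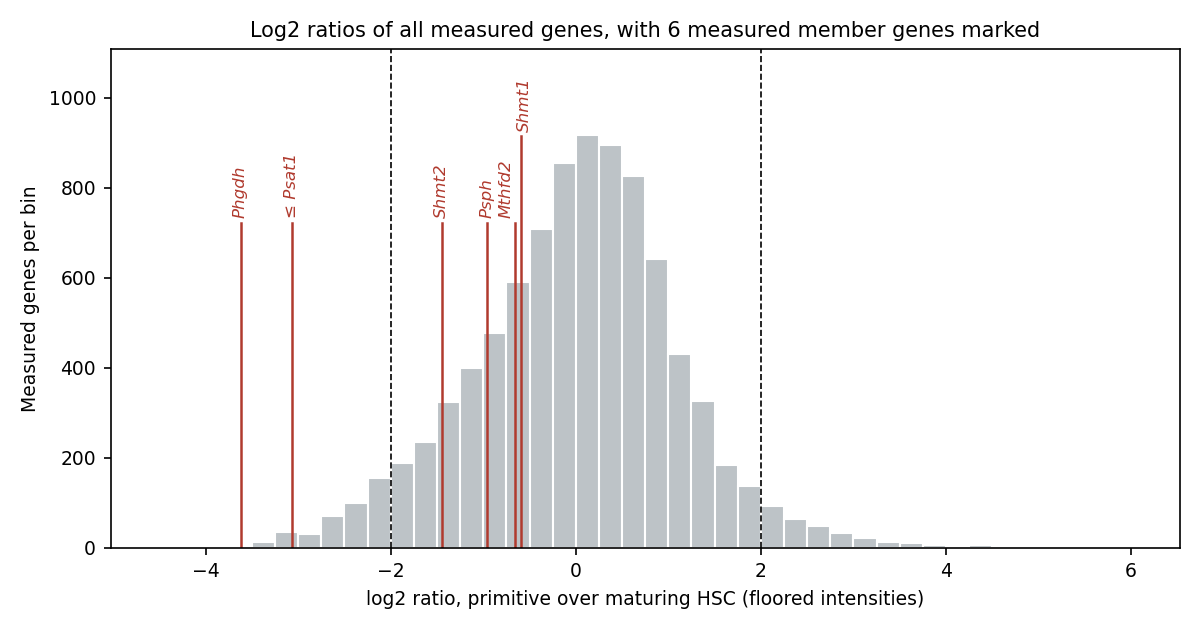
Histogram of the log2 ratio of primitive over maturing HSC for 8852 measured genes, in genes per bin, with red lines at the 6 measured member genes and dashed lines at 4-fold. Phgdh (-3.62) and Psat1 (a bound, at most -3.07) lie in the left tail, and Shmt2, Psph, Mthfd2 and Shmt1 lie between -1.45 and -0.60.

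Promoter windows of Phgdh and Psat1 are shown because both genes were past 4-fold in the same direction. The windows run from 250 bases before a gene's start to 50 after it, are taken from RefSeq on GRCm38.p6, and were found for 7 of 7 member genes (8 windows, since Psat1 has 2 starts). They are written 5′ to 3′ along the gene. Capitals mark the CCAAT box (CCAAT) or the GC box (GGGCGG) on either strand.
Phgdh, chr3:98339920-98340219, minus strand: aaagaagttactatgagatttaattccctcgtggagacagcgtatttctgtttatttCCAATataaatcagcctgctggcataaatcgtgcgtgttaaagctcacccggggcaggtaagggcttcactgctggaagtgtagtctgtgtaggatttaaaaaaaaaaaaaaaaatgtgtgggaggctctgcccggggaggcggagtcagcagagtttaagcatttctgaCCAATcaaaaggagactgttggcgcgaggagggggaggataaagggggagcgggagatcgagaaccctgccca
Psat1, upstream start, chr19:15925010-15925309, minus strand: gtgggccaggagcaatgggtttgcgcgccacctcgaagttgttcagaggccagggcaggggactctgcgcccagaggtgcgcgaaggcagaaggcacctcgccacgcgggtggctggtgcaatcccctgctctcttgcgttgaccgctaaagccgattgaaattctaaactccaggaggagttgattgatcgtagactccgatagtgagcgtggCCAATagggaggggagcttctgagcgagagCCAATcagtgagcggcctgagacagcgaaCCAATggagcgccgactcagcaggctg
Psat1, downstream start, chr19:15924573-15924872, minus strand: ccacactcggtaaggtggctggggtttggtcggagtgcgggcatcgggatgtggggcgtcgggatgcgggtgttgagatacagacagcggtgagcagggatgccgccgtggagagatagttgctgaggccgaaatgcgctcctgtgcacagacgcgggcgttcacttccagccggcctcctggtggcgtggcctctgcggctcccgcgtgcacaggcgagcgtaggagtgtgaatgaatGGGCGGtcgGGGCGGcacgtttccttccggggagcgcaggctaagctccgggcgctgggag
In the Phgdh window, CCAAT boxes began at positions -193 and -23 relative to the start. The upstream Psat1 window held 3 CCAAT boxes and the downstream one held 2 GC boxes and no CCAAT box. A CCAAT box was present in 6 of the 8 member windows, absent from Shmt2, against 37.4% of the 32851 windows of all genes, and a GC box in 4 of 8 against 35.7%. The core of the amino acid response element bound by ATF4 (TGATGNAA) and the E-box bound by MYC (CACGTG) were in 0 of 8 member windows, against 3.97% and 7.15% of all windows. All motifs were searched on both strands. Matches of different motifs did not overlap in the member windows, whereas a pair of GC boxes in the Shmt1 window shared a base. A match or its absence describes the letters of the window only.

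None of the enzymes that move the one-carbon unit from serine to folate passed 4-fold. Shmt2, the mitochondrial serine hydroxymethyltransferase, read 1890 in primitive HSC and 5162 in maturing HSC on its brightest probe set, a log2 ratio of -1.45. The other 3 probe sets of Shmt2 gave smaller ratios or bounds. One read 148 in primitive HSC and 897 in maturing HSC, at least 2.03-fold lower in primitive HSC. The remaining 2 were near equal, with 596 in primitive HSC against 621 in maturing HSC and 854 against 815, or log2 ratios of -0.06 and 0.07. The difference in Shmt2 therefore rests on 2 of its 4 probe sets.

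Shmt1, the cytosolic form of the same enzyme, read 852 in primitive HSC and 1288 in maturing HSC on the only probe set above the floor, a log2 ratio of -0.60. Its other 3 probe sets were under the floor on both arrays, with readings of 46.3 to 162 in primitive HSC and 62.1 to 327 in maturing HSC. The Shmt1 ratio is smaller than that SD of 0.82. Both serine hydroxymethyltransferases were thus lower in primitive HSC by their brightest probe set, and neither passed 4-fold.

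Mthfd2 encodes a mitochondrial enzyme that oxidises methylene-tetrahydrofolate on the way to formate. Its brighter probe set read 620 in primitive HSC and 974 in maturing HSC, a log2 ratio of -0.65. The second probe set read 253 in primitive HSC and 851 in maturing HSC, at least 1.93-fold lower in primitive HSC. Both probe sets of Mthfd2 were lower in primitive HSC, the brighter by less than 4-fold and the second by a bound that does not size the difference. The ratio of -0.65 is smaller than the SD of 0.82 between probe sets.

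Mthfd1, the cytosolic enzyme that interconverts the folate one-carbon forms, was not measured. Its brightest probe set read 425 in primitive HSC and 410 in maturing HSC, both under the floor. A second read 327 in primitive HSC and 165 in maturing HSC, also under the floor. The third read 75.3 in primitive HSC and 462 in maturing HSC, just above the floor on the maturing array, which gives a bound of 1.05-fold. The readings of Mthfd1 ran in opposite directions, and no direction is given for it.

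Counted by probe set, 15 of the 20 were measured, 9 above the floor on both arrays and 6 as bounds. Of these 15, 14 were lower in primitive HSC, against 50.7% of all measured probe sets, and 1, of Shmt2, was higher by 1.05-fold. All 6 bounds were above the floor only on the maturing array, so they could only count as lower in primitive HSC. The 14 include a Shmt2 probe set lower by 1.04-fold. They also include a probe set of Mthfd1 with a bound of 1.05-fold, though no direction is given for that gene. A 4-fold difference was passed by 4 of the 15, all of Phgdh or Psat1 and all lower in primitive HSC, against 4.76% of 12964 measured probe sets of the array. The probe sets of a gene share a transcript and are not independent.

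In 5 ways of scaling the arrays other than the main one, each of the 6 measured genes stayed lower in primitive HSC. Not all of these could have changed a direction. The deposited values barely moved the ratios, and centring on the median ratio or scaling to the hybridisation controls lowered those of all 6. Quantile normalization and lowess could raise them, and there the smallest difference was that of Shmt1, at -0.43 and -0.48. Scaling to the spiked hybridisation controls, with a median log2 ratio of 0.97 toward the primitive array, put the median of all measured genes at -0.74 in place of 0.07 and that of the same 6 member genes at -2.18 in place of -1.20. Relative to all measured genes, the median of these 6 was -1.27 in the main scaling and -1.44 in that one. With Mthfd1, which that scaling brought above the floor as a bound, the member median was -1.93. Split by direction, 415 genes were at least 4-fold lower and 305 higher in primitive HSC in the main scaling, and 1231 lower and 91 higher when scaled to these controls.

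**Figure D3:**
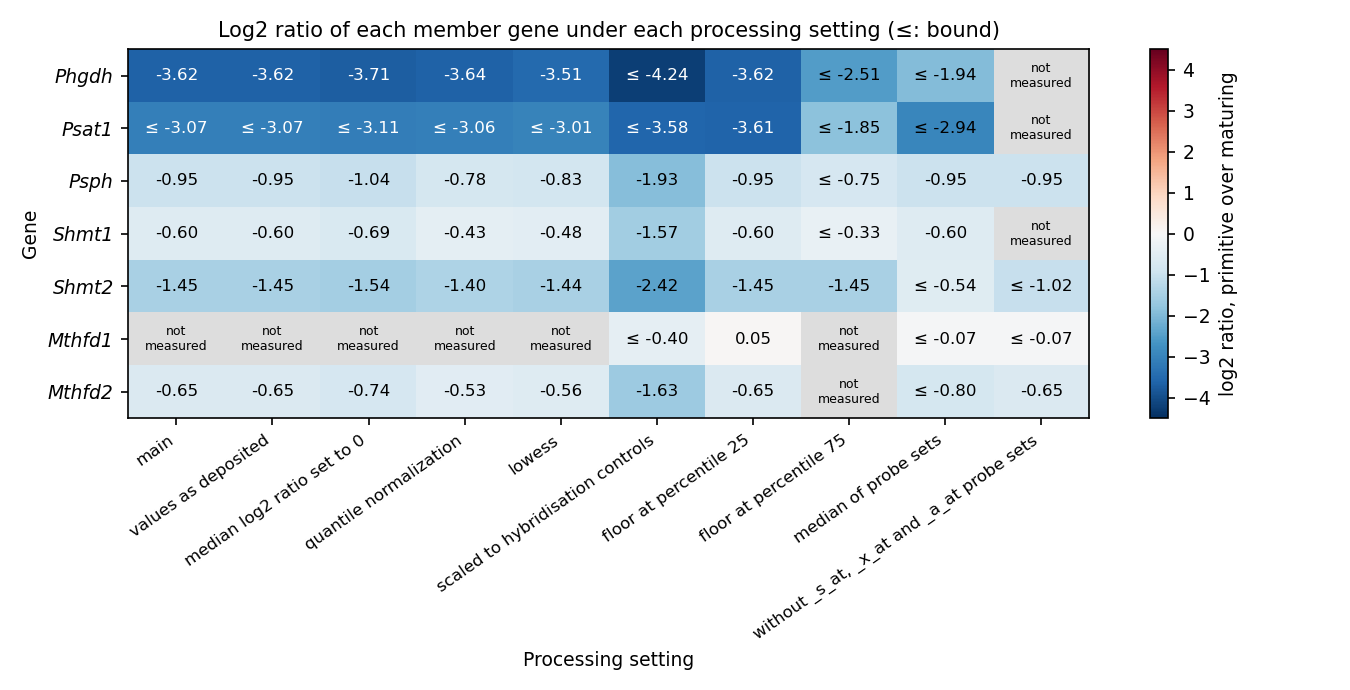
Log2 ratio of primitive over maturing HSC for each member gene (down) under each processing setting (across), with blue for lower in primitive HSC, a ≤ sign for bounds and grey for genes not measured. Phgdh is lower in primitive HSC wherever it was measured, with bounds of at most -1.94 for the median of probe sets and at most -4.24 when scaled to the hybridisation controls, and Mthfd1 is measured in 4 settings with values or bounds from -0.40 to 0.05.

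Other genes of the pathway were taken from 6 lists of 79 genes, and named by the size of their ratio. Of 10 genes of glycine cleavage and serine and glycine breakdown, 7 were on the array under a single symbol and 3 were measured, 2 lower and 1 higher in primitive HSC, with 0 past 4-fold. Dld, the dihydrolipoamide dehydrogenase of the glycine cleavage system, read 74.7 in primitive HSC and 743 in maturing HSC, at least 1.68-fold lower in primitive HSC. Cbs, which joins serine with homocysteine, read 1305 in primitive HSC and 869 in maturing HSC, a log2 ratio of 0.59 that turned to -0.39 when scaled to the hybridisation controls. That scaling put the median of all measured genes at -0.74. Sign changes under it, here and below, are to be read against that median. Gcsh, the carrier protein of glycine cleavage, stood at -0.15 and turned to 0.03 after quantile normalization. Gldc, the decarboxylase of glycine cleavage, was under the floor on both arrays, with 99.2 in primitive HSC and 66.9 in maturing HSC.

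Among 12 other folate enzymes, 5 were measured, 3 lower and 2 higher in primitive HSC, with 0 past 4-fold and a median log2 ratio of -0.05. This median differed little from that of all measured genes, unlike the -1.20 of the members, though the difference between the lists was not tested. Ggh, which trims the glutamate tail of folates, read 2521 in primitive HSC and 1056 in maturing HSC (log2 ratio 1.25). Ftcd, of histidine breakdown, read 816 in primitive HSC and 278 in maturing HSC, at least 1.85-fold higher in primitive HSC. Fpgs, which adds the glutamate tail, read 893 in primitive HSC and 1512 in maturing HSC (-0.76). Mtfmt, which formylates the mitochondrial initiator tRNA, stood at -0.64. Tyms, thymidylate synthase, was under the floor on both arrays, with 215 in primitive HSC and 301 in maturing HSC.

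Of 9 measured transporters of folate, serine and glycine, 4 were lower and 5 higher in primitive HSC, and 1 passed 4-fold. This was Slc1a5, a carrier of glutamine and other neutral amino acids that include serine, which read 178 in primitive HSC and 3693 in maturing HSC, at least 8.37-fold lower in primitive HSC. Slc38a1, another neutral amino acid carrier, was at least 3.71-fold lower in primitive HSC. Slc19a1, the reduced folate carrier, read 631 in primitive HSC and 1252 in maturing HSC (-0.99). Slc1a4, a serine and alanine carrier, read 824 in primitive HSC and 457 in maturing HSC, a log2 ratio of 0.85 that turned to -0.12 when scaled to the hybridisation controls.

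In the methionine cycle, which takes up one-carbon units as methyl groups, 3 of 5 measured genes were lower in primitive HSC and 0 passed 4-fold, with a median of -0.81. Ahcyl1, a relative of S-adenosylhomocysteine hydrolase, stood at -1.83 and Mat2b, the regulatory subunit of methionine adenosyltransferase, at -1.70. Ahcy itself, the hydrolase, read 3893 in primitive HSC and 6846 in maturing HSC (-0.81). Bhmt, which methylates homocysteine from betaine, read 725 in primitive HSC and 508 in maturing HSC (0.51), which turned to -0.46 when scaled to the hybridisation controls. The list of purine and pyrimidine synthesis had 10 of 13 measured genes lower in primitive HSC, against 47.3% of all measured genes. The purine ring takes up folate one-carbon units, but the list also holds pyrimidine genes. The 3 past 4-fold lower (4.69% of all) were Adss, Umps and Ctps, the last 2 of pyrimidine synthesis. Cad and Dhodh, of pyrimidine synthesis too, were the 2 past 4-fold higher (3.45% of all). Gart, of purine synthesis, stood at -0.76 but turned to 0.23 after quantile normalization and 0.17 after lowess. The list median of -1.12 lay near the -1.20 of the member genes, and the 2 lists were not compared by a test.

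The transcription factor ATF4 is known to induce Phgdh, Psat1, Shmt2 and Mthfd2 when amino acids are short, and a list of 20 genes of that response was read beside them. Of 15 measured genes, 5 were lower and 10 higher in primitive HSC, 0 and 1 of them past 4-fold, with a median log2 ratio of 0.48. The list median turned to -0.87 when scaled to the hybridisation controls, which lay 0.14 below the median of all measured genes in that scaling. Relative to all measured genes, the list median was 0.41 in the main setting, 0.13 after quantile normalization and 0.08 after lowess. Over 9 alternatives this difference ran from -0.14 to 0.62, so the higher list median depended on the processing. Ddit3, a stress-induced transcription factor, read 9243 in primitive HSC and 1386 in maturing HSC, a log2 ratio of 2.74. Nupr1, a stress-response nuclear protein, read higher in primitive HSC by at least 3.37-fold. Slc7a1, a carrier of cationic amino acids, was at least 2.42-fold higher. Aldh18a1, of proline synthesis, stood at 1.62, but its measured probe sets ran from -0.41 to 1.69. Atf4 and the asparagine synthetase gene Asns were singled out after their values were seen. Atf4 read 10186 in primitive HSC and 7186 in maturing HSC (0.50), which turned to -0.47 when scaled to the hybridisation controls. The median of all measured genes was -0.74 in that scaling. Asns read 2607 in primitive HSC and 2585 in maturing HSC (0.01) on its brightest probe set, which turned to -0.96 in that scaling, and its other measured probe set stood at -0.72.

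**Figure D4:**
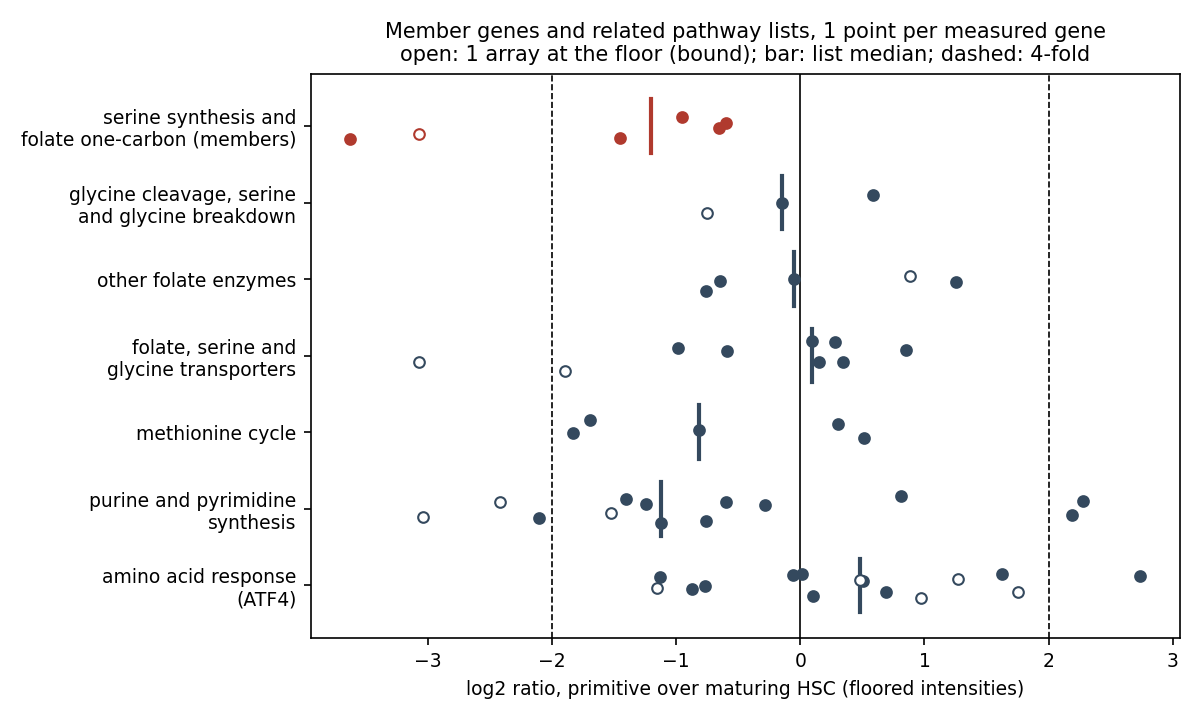
Log2 ratio of primitive over maturing HSC for each measured gene of the members (red) and of 6 related lists (dark blue), with open points for bounds, bars for list medians and dashed lines at 4-fold. In the main setting shown, all 6 measured member genes lie left of 0, with a median of -1.20. The amino acid response list lies mostly right of 0 there, with a median of 0.48. After lowess its median was 0.19, against 0.11 for all measured genes.

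The sorted cells were checked against marker genes. Of 9 stem and progenitor markers, all were measured, 5 lower and 4 higher in primitive HSC, and 7 were above the floor on both arrays. Kit read 3802 in primitive HSC and 5053 in maturing HSC, Cd34 3320 and 6237, and Procr 11571 and 1895. Under the floor on the primitive array were Flt3, with 220 in primitive HSC and 2277 in maturing HSC, and Meis1, with 59.1 and 1199. Of T and natural killer cell markers, 4 of 5 measured were higher in primitive HSC, with a list median log2 ratio of 2.11. Ccl5 read 37795 in primitive HSC and 1511 in maturing HSC. Of the defining CD3 genes, Cd3d read 8673 in primitive HSC and 44.2 in maturing HSC, a difference of at least 19.7-fold, and Cd3e and Cd3g were under the floor on both arrays. Of 8 neutrophil and monocyte markers, 5 were higher in primitive HSC in the main scaling, with a list median log2 ratio of 0.47. These were S100a8, with 46743 in primitive HSC and 19527 in maturing HSC, Camp, with 27725 and 14077, and Lyz2, with 23502 and 13453. S100a9 read 13751 and 5986, and Elane 630 and 577. The other 3 were lower, Mpo by at least 5.87-fold, Csf3r by at least 5.84-fold and Ltf at a log2 ratio of -1.63. Median log2 ratios were -0.62 for 3 measured B cell markers and 0.67 for 5 macrophage and dendritic cell markers. They were 0.80 for 2 erythroid and -0.20 for 4 megakaryocyte markers. Single genes departed from these medians. The erythroid markers were Klf1, at 1.89, and Epor, at -0.29. Gp9, a megakaryocyte marker, read 1820 in primitive HSC and 40.1 in maturing HSC, a bound of 4.13-fold. No other gene of these lists passed 4-fold in the main scaling. The control probe sets for the 5′ end, middle and 3′ end of Gapdh had log2 ratios of 0.65, 0.61 and 0.69, and those of beta-actin -0.05, 0.37 and 0.32. The part of other cell types and of transcript coverage in the member ratios was not tested.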

How the data were processed

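Gene expression was read on 2 Affymetrix arrays, 1 of primitive and 1 of maturing HSC. The authors deposited linear signal intensities. They come from MAS5, of unstated version, per the submitters' processing notes. The authors' scaling left 2% trimmed means of 1000.6 and 1000.4. Detection calls were not used here.

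Here the arrays were brought to 1 trimmed mean, readings under 441 (the pooled median without controls) were floored, and log2 ratios were taken. Of 22690 probe sets, 64 were controls. Of the others, 20380 had 1 gene symbol and 691 several; the rest were unnamed here. Symbols were checked through Entrez identifiers in RefSeq for 20351 probe sets, and 0 changed. The brightest probe set stood for a gene. The steps were tested on simulated data with large changes put into bright genes only, so readings near the floor were not covered. With 1 array per group there was no test and no p-value, and the number of arrays limits the precision.

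The members and lists were chosen with earlier results of these data known. Named were all member genes, up to 4 genes per list with the largest ratio or bound and any at least 4-fold apart, and the 3 genes nearest Phgdh in ratio. Gldc, Tyms, Gart, Atf4 and Asns were added for their roles after their values were seen. Alternatives were 5 scalings, a floor at percentile 25 or 75, a threshold of 2-fold or 8-fold, the median over a gene's probe sets with bounds entered as such, and omission of probe sets whose suffix marks possible binding to more than 1 transcript. Python 3.11.15, numpy 2.4.6, pandas 2.3.3 and statsmodels 0.14.6 were used, with a lowess fraction of 0.3.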

Additional observations from a re-analysis of the deposited data

How the results depend on the processing

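The 2 member genes at least 4-fold lower in primitive HSC (4.69% of all measured genes) became 1 with the floor at percentile 75 (2.53% of all), 1 with the median over a gene's probe sets (3.26%) and 0 with only probe sets specific to 1 transcript (4.65%), a setting that leaves no usable probe set of Phgdh, Psat1 or Shmt1. The count was 3 when scaled to the hybridisation controls, where 13.5% of all measured genes were called lower, 3 at 2-fold (17.6%) and 2 at 8-fold (0.678%). The count of member genes 4-fold or more higher in primitive HSC was 0 in every setting. The member median ran from -1.93 to -0.80 over 9 alternatives, with bounds entered as such and 4 to 7 genes measured. Phgdh was at most -1.94 with the median of probe sets and at most -4.24 with the hybridisation controls. Psat1 stood at -3.61 with the floor at percentile 25 and was at most -1.85 at percentile 75. Shmt2 stood at -2.42 with the hybridisation controls and at most -0.54 with the median of probe sets. Mthfd1 was measured in 4 alternatives and was above 0, at 0.05, with the floor at percentile 25. No paired analysis was possible because each group has 1 array. Without replicates no spread between libraries is known, and differences in readings under the floor cannot be sized.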

Other observations

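Within pyrimidine synthesis, the early and late enzymes differed in direction. Cad, which carries out the opening steps, read 2125 in primitive HSC and 465 in maturing HSC (log2 ratio 2.19), and Dhodh, the mitochondrial dehydrogenase that follows, read 2446 in primitive HSC and 505 in maturing HSC (2.27). Umps, which completes UMP, was at least 5.34-fold lower in primitive HSC, and Ctps, which converts UTP to CTP, at least 8.19-fold lower. Cad and Dhodh were higher in primitive HSC and Umps and Ctps lower in 10 of 10 processing settings. The maturing readings of Cad and Dhodh lay just above the floor. With the floor at percentile 75 their log2 ratios were only bounds, at least 1.05 and 1.25. Scaled to the hybridisation controls they were 1.22 and 1.30. Umps was at most -1.39 with the median of probe sets. A second probe set of Umps stood at -0.46. In purine synthesis, Adss, which opens the branch to AMP, read 1052 in primitive HSC and 4526 in maturing HSC (-2.10).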
